A study of Arabidopsis thaliana with 4 samples.

Results

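The comparison described here is that of Arabidopsis seedlings exposed to (E)-2-pentenal vapour with seedlings exposed to the solvent acetonitrile, both for 30 min. Its members are the genes whose probe was well above background on both arrays, and these numbered 19339 of the 25413 genes that could be matched to a probe. Both groups were wild-type Arabidopsis thaliana of the Columbia-0 ecotype, labelled as seedlings, with no age given, and both received acetonitrile, since the volatile was dissolved in it. The plants had stood in the dark at 4 °C for 3 days and were then kept on peat pellets at 23 °C, lit for 14 h a day and dark for 10 h. For treatment they were closed into a 340 cm3 box in the light at 25 °C, where paper under the lid held 3 µl of acetonitrile, either alone or with the volatile at 1 M. The nominal dose was 10 µM, and 8.82 µM would result if all of the volatile entered the air. Each group was 1 array hybridised with RNA pooled from at least 6 plants, so no test or standard error could be given. The series also held 1 array each for 3-hepten-2-one and crotonaldehyde, at the same nominal dose and time. The crotonaldehyde array stood apart from the other 3 in the tissue markers PDF1 and PYK10 and the clock gene LHY, whose levels are given beside its values. The 3-hepten-2-one array stood apart in the clock genes GRP7 and ELF4, also given there.

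(E)-2-pentenal is an unsaturated aldehyde of the kind that leaves release from damaged membrane lipids. Such compounds are electrophiles: they add to the thiol groups of glutathione and of proteins, and modified proteins can lose their fold. Unfolded proteins draw chaperones away from heat shock factors, which then bind heat shock elements in the promoters of chaperone genes. Plants remove reactive carbonyls by conjugation to glutathione, by reduction of the double bond or of the aldehyde group, and by oxidation and glucosylation of the products.

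More of the large differences were upward than downward. After (E)-2-pentenal 856 of the compared genes (4.43%) were higher by 2-fold or more, and 449 (2.32%) were lower by as much. Of the 1305 genes past 2-fold, 65.6% were therefore higher. The median log2 difference, (E)-2-pentenal minus acetonitrile, was -0.07 over all compared genes, with quartiles of -0.24 and 0.11, and 85.1% of genes differed by less than 1.5-fold. At a limit of 4-fold 314 genes were higher and 58 lower, at 16-fold 72 and 5, and at 64-fold 13 and 0. A further 415 genes were well above background on the (E)-2-pentenal array only and 226 on the control array only. For these the difference has only a bound, taken against the lowest signal among probes well above background on the array where the gene was dim, or against the gene's own signal there if that was higher, and 129 were at least 2-fold higher by that bound and 89 at least 2-fold lower. Levels are given below as scaled signals, in which the 75th percentile of each array is 1000. The lowest scaled signal of a compared gene was 9.79 in the control and 8.63 after (E)-2-pentenal, and the highest of a gene not well above background was 14.3 and 12. The 8 spike-in controls, probes for RNA of known amount that is added to a sample, had a median log2 difference of 0.13 on that scale. When the arrays were scaled to the spike-ins instead, every difference was lower by 0.13, with 753 genes higher and 612 lower, of which 55.2% were higher, so genes just past 2-fold upward are not past it on that scale. The list counts below are to be read beside the shares over all compared genes, 4.43% higher and 2.32% lower. The list counts were also taken in 7 other settings of scaling, background correction and probe choice that keep the same compared genes, and where a count moved by over 1.5 times its range over these settings is given.

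**Figure D1:**
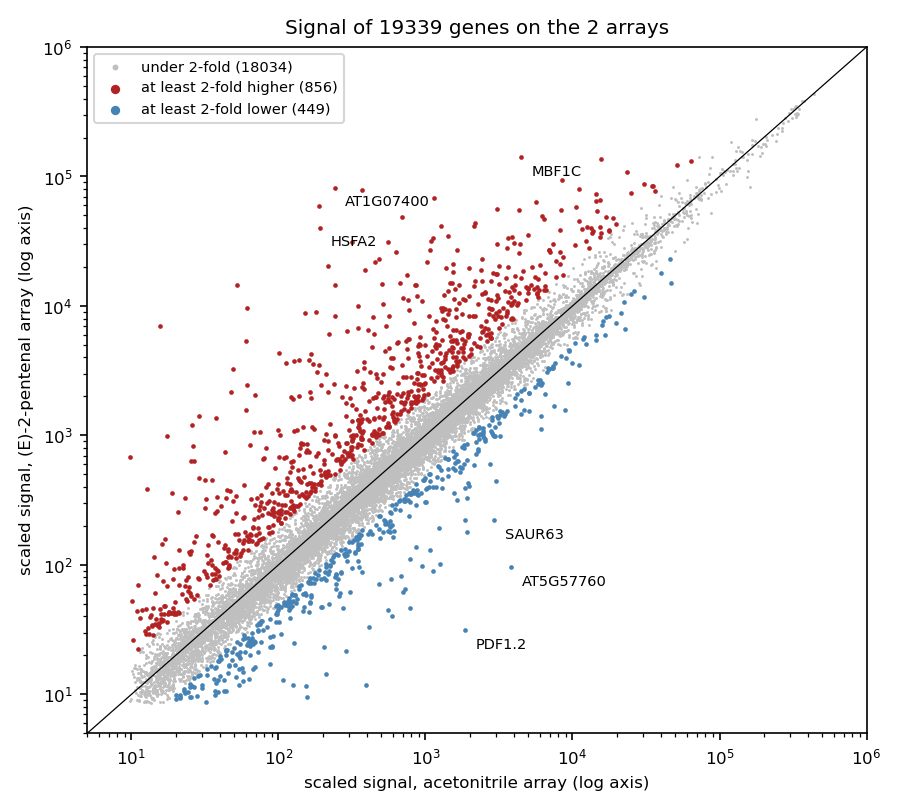
Scaled signal of each compared gene on the acetonitrile array (horizontal, log axis) and on the (E)-2-pentenal array (vertical, log axis), with the 75th percentile of each array at 1000. Red points are the 856 genes at least 2-fold higher, blue points the 449 at least 2-fold lower, grey points the rest, and the line marks equal signal. The red points reach much farther from the line than the blue ones.

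Both arrays lay on the same slide and were scanned together. They had no saturated spot, 72.9% and 73.9% of spots well above background for acetonitrile and (E)-2-pentenal, and a 75th percentile of 1667 and 1518 before scaling. The log2 difference had an SD of 0.084 between repeat spots (18 probes) and of 0.18 between different probes of a gene (5923 genes). Both describe error within an array and not the spread between plants. Of 292 genes past 2-fold with several probes, 288 had all probes on the same side of 0 and 247 had all past 2-fold. Lower genes were more frequent among dim ones than among bright ones: in the dimmest 10% of genes 3.88% were higher and 5.43% lower, and in the brightest 10% the shares were 6.93% and 1.4%. Level here was the mean over both arrays. A higher (E)-2-pentenal signal thus itself moves a gene towards the bright end, and a lower one towards the dim end.

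Leaf markers were bright on both arrays. The 12 leaf mesophyll markers summed to a scaled signal of 2694965 in the control and 2623853 after (E)-2-pentenal, none past 2-fold, with RBCS1A, a small subunit of Rubisco, at 361872 and 384796. Epidermal, guard cell and phloem markers were all measured, with medians of -0.13 over 7, -0.39 over 6 and -0.37 over 4 genes and none past 2-fold. Of 4 pollen markers none was well above background on either array, and 3 of 6 seed markers were not. Of the 3 seed markers compared SESA1 was lower, at 45.6 and 14.6 (3.13-fold), but at -0.64 on the log2 scale after normexp correction. Compared were also 5 of 7 flower markers and 2 of 4 meristem markers, with medians of 0.15 and -0.26 and none past 2-fold. Of the root markers compared only PYK10, a beta-glucosidase of ER bodies, passed 2-fold, and it was at 17818 in the control and 8423 after (E)-2-pentenal (2.12-fold lower). The 7 compared root markers had a median of -0.36, or -0.47 with bounds, with 1 above 0 and 6 below. The Casparian strip gene CASP1 was at 39.1 and 44.6, and the endodermis regulator SCR at 583 and 559.7. CASP2, RHD6 and SHV2 were at -0.57, -0.36 and -0.70 on the log2 scale. NRT2:1 was well above background in the control only, at least 1.81-fold lower. The summed root signal was 18637 and 9156, nearly all of it PYK10. In such bulk RNA, fewer cells of a type and less RNA per cell cannot be told apart.

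The small heat shock proteins, which hold unfolding proteins in a soluble state, held most of the greatest differences. All 6 class I genes, whose products lie in the cytosol, were higher. AT1G07400 was at 241 in the control and 82001 after (E)-2-pentenal (340.3-fold), AT1G59860 at 187 and 58796 (314-fold), and AT2G29500 at 372 and 79301 (213-fold). These 3 were measured above background in unexposed plants as well. AT1G53540, at background in the control with 11.4, was at 49401 after exposure, at least 4323-fold higher. HSP17.4 was at background in the control, 3.59, and at 6072 after exposure, at least 639.9-fold. HSP18.2 differed least of the class, at 339 and 1606 (4.74-fold). Class I genes are close in sequence, so a probe of one can bind transcripts of another.

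The other small heat shock protein classes showed the same direction with 1 exception. The class II genes HSP17.6A and HSP17.6II were at background in the control, 2.64 and 9.53, and at 8501 and 8123 after exposure, at least 896-fold and 852-fold higher. AT1G54050, also of these classes, was at 1280 and 41649 (32.5-fold). Most members for the organelles were at background in unexposed plants. AT5G51440 was at 52.1 and 14532 (279-fold), and the mitochondrial HSP23.6-MITO at 2.11 and 2436, at least 257-fold. HSP21, of the chloroplast, was at 2.75 and 766, at least 80.8-fold, and ATHSP22.0, of the ER, at 2.15 and 632, at least 66.7-fold. AT5G37670 was 49.9-fold higher, AT2G19310 7.16-fold, and AT1G52560 at least 56.5-fold. The exception was AT4G21870, 2891 in the control and 1005 after (E)-2-pentenal (2.88-fold lower). Over the 3 classes, with 17 genes, 8 compared genes were higher, 8 were higher by a bound and 1 was lower.

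Chaperones that use ATP held both very large differences and members that differed little. HSP101, the disaggregase that pulls proteins out of aggregates, was at 315 in the control and 31074 after (E)-2-pentenal (98.6-fold). Its mitochondrial and chloroplast relatives CLPB4 and CLPB3 were 8.23-fold and 2.09-fold higher. Of 16 compared HSP70 genes 8 were higher and none lower, with a median log2 difference of 1.17, or 1.46 with BIP3 at its bound, beside 4.43% higher and a median of -0.07 over all genes. HSP70 (AT3G12580) was at 1141 and 68239 (59.8-fold), HSP70T-2 at 244 and 14623 (59.9-fold), and Hsp70b at 49.4 and 3274 (66.2-fold). HSC70-1, the constitutive cytosolic form, was at 46557 in the control and 68125 after (E)-2-pentenal (1.46-fold), and its 8 probes gave log2 differences from 0.33 to 1.46. The greatest differences of the family were those of HSP70, HSP70T-2 and Hsp70b. The chloroplast forms cpHsc70-1 and cpHsc70-2 differed by 1.25-fold and 1.85-fold, and the mitochondrial forms mtHsc70-1 and MTHSC70-2 by 1.13-fold and 5.07-fold, all in the upward direction.

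The HSP90 family, which matures kinases and receptors and holds heat shock factors inactive, was higher in its cytosolic members. The inducible HSP90.1 was at 560.2 and 31117 (55.5-fold higher). HSP81-2 was at 8314 and 54677 (6.58-fold), Hsp81.4 at 14453 and 72990 (5.05-fold), and HSP81-3 at 15328 and 66028 (4.31-fold). The second probe of Hsp81.4 gave a log2 difference of only 0.99. The organellar members CR88 of the chloroplast, Hsp89.1 of mitochondria and SHD of the ER differed by 1.61-fold, 1.56-fold and 1.05-fold. The 4 cytosolic genes were thus the 4 of 7 past 2-fold.

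Co-chaperones were divided between members with very large differences and members with almost none. Among 24 disaggregases and co-chaperones there were 11 higher genes and no lower one, or 9 and 1 with spike-in scaling, while the median log2 difference was only 0.15. Hop3, which links HSP70 to HSP90, was at 219 and 20356 (93.1-fold), whereas its paralogs Hop2 and Hop1 were at 1.07 and -0.11 on the log2 scale. BAG6, an HSP70 regulator, was at 689 and 48880 (71-fold), while BAG1, BAG3, BAG4 and BAG7 lay within 1.5-fold and BAG2 was at -0.93 on the log2 scale. Fes1A, which protects cytosolic HSP70, was at 632 and 26303 (41.6-fold), and Fes1B and Fes1C at 0.05 and -0.10. The pair of immunophilins ROF1 and AT5G48570, known as ROF2, were 6.38-fold and 49-fold higher. Each of these families thus had 1 or more members with a large difference and others near 0, apart from the ROF pair. HSBP, which binds heat shock factors and turns them off, was at 3632 and 4031. Of 8 chaperonins only the mitochondrial HSP60 passed 2-fold (2.21-fold higher).

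**Figure D2:**
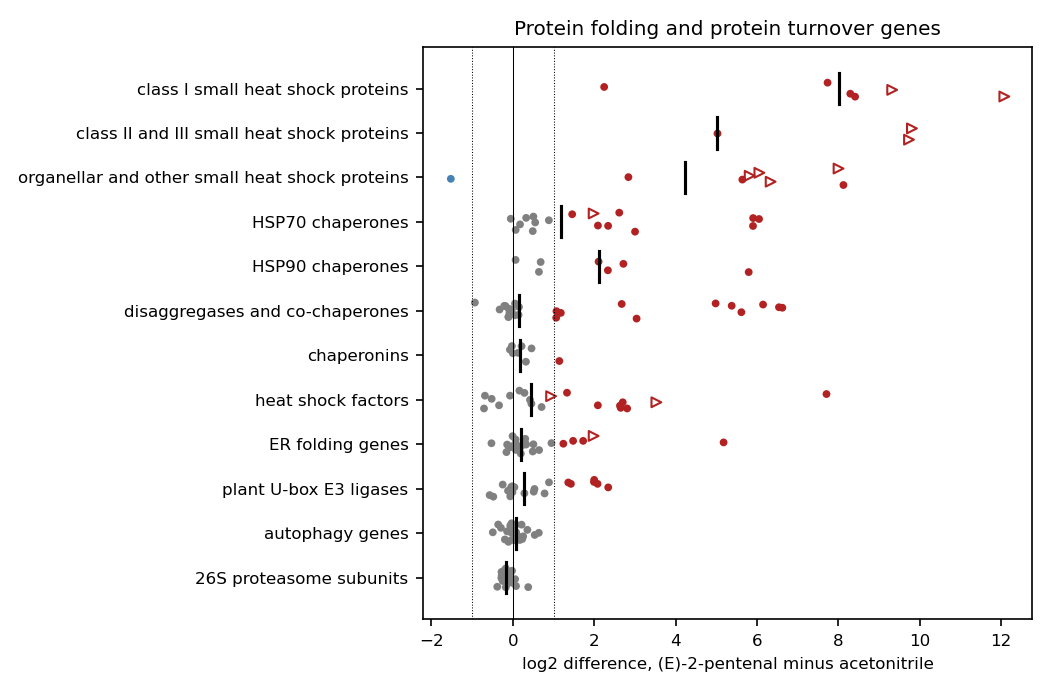
Log2 difference, (E)-2-pentenal minus acetonitrile, of each member of 12 lists of protein folding and turnover genes. Points are compared genes (red at least 2-fold higher, blue at least 2-fold lower), open triangles are lower bounds for genes at background on the control array, and black bars are list medians over compared genes. Small heat shock proteins lie farthest to the right, co-chaperones form separate high and near-zero groups, and proteasome subunits lie close to 0.

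Among the heat shock factors, the transcription factors of this response, 7 of 17 compared genes were higher and none lower. HSFA2, known to amplify and prolong the response, was at 193 in the control and 40265 after (E)-2-pentenal (209-fold). HSFA7A was 6.2-fold higher, and AT-HSFA7B, at background in the control with 2.03, was at 109.5 after exposure, at least 11.5-fold. Of the class B factors, known mostly as repressors of heat shock genes, 3 were higher. HSFB2A was at 1178 and 7660 (6.5-fold), AT-HSFB2B 6.28-fold higher, and HSF4, known as HSFB1, 4.25-fold. HSF A4A, linked to reactive oxygen, was at 1358 and 9518 (7.01-fold). The class A1 factors, which start the response through protein activation, differed little: HSF1 was at -0.52 on the log2 scale, HSF3 at -0.07, HSFA1D at 0.16 and HSFA1E at 0.46. MBF1C, a transcriptional co-activator needed for heat tolerance, was at 4449 and 140663 (31.6-fold), and its paralogs MBF1A and MBF1B at -0.18 and -0.03.

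Folding genes of the ER and protein breakdown genes stood apart from the cytosolic chaperones. Of 25 ER folding genes 4 were higher and none lower, with a median of 0.20. ATERDJ3A, a J-domain co-chaperone of the ER, was at 37.8 and 1369 (36.2-fold). The stress sensors BZIP28 and BZIP60 were 2.36-fold and 2.79-fold higher, while the lumenal HSP70 genes BIP1 and BIP2 were at 0.49 and 0.51 and the protein disulfide isomerase PDIL1-1 at -0.10. BIP3, often used as a marker of ER stress, was below background in the control and at 37.6 after exposure, at least 3.96-fold higher. None of 37 proteasome subunits and none of 27 autophagy genes passed 2-fold, with medians of -0.17 and 0.07. Of 21 U-box ubiquitin ligases 6 were higher and none lower. They were PUB22, PUB23 and PUB24, which restrain immune signalling, at 2.69-fold, 4-fold and 3.98-fold, PUB29 at 5.08-fold, PUB54 at 4.23-fold and PUB39 at 2.57-fold.

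Enzymes that act on reactive carbonyls were divided by type. AER, an alkenal reductase that saturates the double bond of compounds such as (E)-2-pentenal, was at 768 in the control and 5583 after exposure (7.27-fold higher). OPR1, a reductase of unsaturated carbonyls, was at 15668 and 137420 (8.77-fold), and OPR2 was 4.03-fold higher. OPR3, the jasmonate synthesis enzyme of the same family, was at -0.23 on the log2 scale, and AOR, a chloroplast enzyme that also reduces alkenals, at 0.02. Of the whole list of 30 carbonyl reductases and aldehyde dehydrogenases 4 were higher and none lower, the fourth being the aldo-keto reductase ChlAKR (2.63-fold, and at 0.99 on the log2 scale after normexp correction). No aldehyde dehydrogenase passed 2-fold. The 4 genes that passed are thus all reductases.

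Glutathione S-transferases join electrophiles to glutathione, and the tau class held most of the higher ones. Of 21 compared tau genes 7 were higher and 1 lower (median 0.28, or 0.31 with bounds), with 3 more well above background on the (E)-2-pentenal array only, and of 13 phi genes 3 were higher and none lower (median 0.37). GSTU7 was at 1388 and 19472 (14-fold), GSTU24 at 163 and 2158 (13.2-fold) and GSTU1 at 216 and 2174, a log2 difference of 3.33. GSTU2, at background in the control with 10.2, was at 180.3 after exposure, at least 17.8-fold. GSTU19 was at 36471 and 77349 (2.12-fold). GSTU6 was the lower one, at 1119 and 402 (2.78-fold). Of the phi class GSTF8, a common marker of early stress responses, was at 6982 and 26288 (3.77-fold).

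The supply of cysteine and glutathione showed a narrow difference. Of 25 genes of sulfate assimilation and glutathione synthesis 2 (8%) were higher and none lower, with a median of -0.08. SERAT2;1, a serine acetyltransferase that makes the precursor of cysteine, was at 2126 and 41761 (19.6-fold). APR3, which reduces activated sulfate, was at 1974 and 19544 (9.9-fold).

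UDP-glucosyltransferases of the UGT73 and UGT74 groups, which attach glucose to hormones and foreign compounds, were higher more often than most lists. Of 13 compared genes 8 were higher and none lower, with a median log2 difference of 3.49, or 3.33 with UGT73C1 at its bound, beside 4.43% of all genes. UGT73B3 was at 1120 and 33567 (30.0-fold), UGT73B1 at 1549 and 21062 (13.6-fold), and UGT73B5 at 347 and 9981 (28.7-fold). DOGT1, known as UGT73C5 and able to detoxify a fungal toxin and glucosylate brassinosteroids, was at 749 and 17267 (23.1-fold), and its second probe gave a log2 difference of 5.91, above the 4.53 of the first. UGT74E2, which glucosylates indole-butyric acid, was 11.2-fold higher. The 5 compared members that did not pass lay between -0.36 and 0.39.

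Of 152 compared cytochromes P450, oxidising enzymes of many pathways, 18 (11.8%) were higher and 6 (3.95%) lower, with a median of -0.03. CYP81D11, which responds to xenobiotics, was at 243 and 8328 (34.2-fold). CYP89A5, CYP89A6 and CYP89A2 were 9.12-fold, 7.27-fold and 2.38-fold higher, and CYP81D8 5.12-fold. The 6 relatives CYP72A8, CYP72A9, CYP72A10, CYP72A13, CYP72A14 and CYP72A15 were all higher, by between 2.28-fold and 2.88-fold. Of the same group CYP72A7 and CYP72A11 were at -0.14 and -0.18 on the log2 scale, the other probe of CYP72A11 being at 0.69. The lowest was CYP94C1, which breaks down active jasmonate, at 7500 and 1682 (4.46-fold lower). Of 69 ABC and MATE transporters 5 (7.25%) were higher and 2 (2.9%) lower, beside 4.43% and 2.32% of all genes, and the lower count lay between 0 and 3 over the settings. ABCC2, a vacuolar pump for glutathione conjugates, was at 1366 and 3902 (2.86-fold), and ABCG34 was 2.61-fold higher.

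Redox enzymes were mostly level. Of 37 compared, 4 (10.8%) were higher and none lower (median -0.02): DHAR2, which regenerates ascorbate, at 1273 and 9708 (7.63-fold), the glutaredoxin GRX480 at 5.91-fold, the glutathione peroxidase GPX6 at 2.16-fold (0.98 on the log2 scale with spike-in scaling), and AGC2-1. AGC2-1, the kinase known as OXI1 that acts downstream of hydrogen peroxide, was at 47.5 and 2182 (46-fold). APX2, a heat-inducible ascorbate peroxidase, was at background in the control, 2.73, and at 65.5 after exposure, at least 6.9-fold. Catalases and superoxide dismutases on the list did not pass 2-fold. Of 19 genes linked to signals from impaired mitochondria 6 (31.6%) were higher and none lower, with a median of 0.75. Beside AT5G51440 and GSTU24 they were NAC053 at 4.06-fold, the dicarboxylate carrier DIC2 at 3.68-fold, BCS1 at 3.38-fold and the alternative oxidase AOX1A at 2.09-fold, which is under 2-fold in 5 of the other settings of the processing.

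Transcription factor families differed in how many members were higher. The 8 compared C2H2 zinc finger repressors called ZAT and AZF were all higher, or 7 of 8 in some of the other settings, with a median log2 difference of 3.39. ZAT11 was at 25.9 and 1200 (46.4-fold), ZAT6 at 1021 and 21903 (21.4-fold), and RHL41, known as ZAT12 and as a regulator of oxidative stress genes, at 3049 and 56584 (18.6-fold). STZ, known as ZAT10, was at 6169 and 49438 (8.01-fold). ZF3, known as AZF3, passed only just at 1.02, and its other probe gave -0.73. It was under 2-fold with the authors' scaled values, with spike-in scaling, after normexp correction and as the mean of its probes.

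Of 70 NAC factors 15 (21.4%) were higher and 5 (7.14%) lower (median -0.16), the lower count being 3 to 9 over the settings. The higher ones included the ATAF group, which responds to stress and to foreign chemicals: NAC102 at 1429 and 34930 (24.4-fold), NAC032 at 515 and 10289 (20.0-fold), ATAF1 at 1510 and 15105 (10.0-fold) and ATAF2 at 8525 and 93285 (10.9-fold). All 4 members of that group were thus at least 10-fold higher. The lower ones included NAC019, a factor of jasmonate and abscisic acid responses, at 615 and 184 (3.35-fold lower), and its close relative NAC3 (AT3G15500), known as ANAC055, at 292 and 107 (2.73-fold lower). Another gene with the symbol NAC3, AT3G29035, lay in the opposite direction at 79.8 and 277 (3.47-fold higher).

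Ethylene response and DREB factors passed 2-fold in both directions, with 15 of 55 (27.3%) higher and 8 (14.6%) lower (median 0.11), the latter 4 to 9 over the settings. DREB2A, a factor of heat and drought responses, was at 451 and 22004 (48.8-fold), and DREB2B and DREB2C were 3.87-fold and 9.49-fold higher. The defence-linked ERF5, ERF104, ERF6 and AT5G51190, known as ERF105, were 27.4-fold, 12-fold, 6.85-fold and 8.6-fold higher. Lower members included RAP2.6 at 273 and 46.2 (5.91-fold), ORA59, which joins jasmonate and ethylene signals in defence, at 349 and 132 (2.64-fold), ERF9 at 3.44-fold, and EBP. EBP, known as RAP2.3, was at 46927 and 15095 (3.11-fold).

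Of 56 WRKY factors, regulators of defence genes, 17 (30.4%) were higher and 1 lower (median 0.18), beside 4.43% and 2.32% of all genes. WRKY33, needed for camalexin synthesis, was at 1472 and 15122 (10.3-fold), WRKY40 at 4964 and 35168 (7.08-fold), and WRKY53, a senescence regulator, at 384 and 3662 (9.55-fold). WRKY46, WRKY54 and WRKY70, which act together in salicylic acid responses, were 8.88-fold, 3.89-fold and 3.36-fold higher. WRKY29 was the lower one (2.48-fold). Of 69 MYB factors 4 (5.8%) were higher and 9 (13%) lower, the lower count being 5 to 11 over the settings. MYB77, an auxin-linked factor, was at 8176 and 38718 (4.74-fold higher). Regulators of indole glucosinolates lay on opposite sides: MYB51 was at 708 and 2827 (4-fold higher) and MYB34 at 6549 and 2076 (3.15-fold lower). Of 46 bZIP factors 3 (6.52%) were higher and 2 (4.35%) lower, beside the same shares of all genes, with 1 or 2 lower over the settings. Of 36 bHLH factors 2 (5.56%) were higher, though neither with spike-in scaling, and 4 (11.1%) lower, led by the shade avoidance regulator PAR1 at 3018 and 447 (6.75-fold) and the brassinosteroid-responsive BEE3 (4.95-fold).

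**Figure D3:**
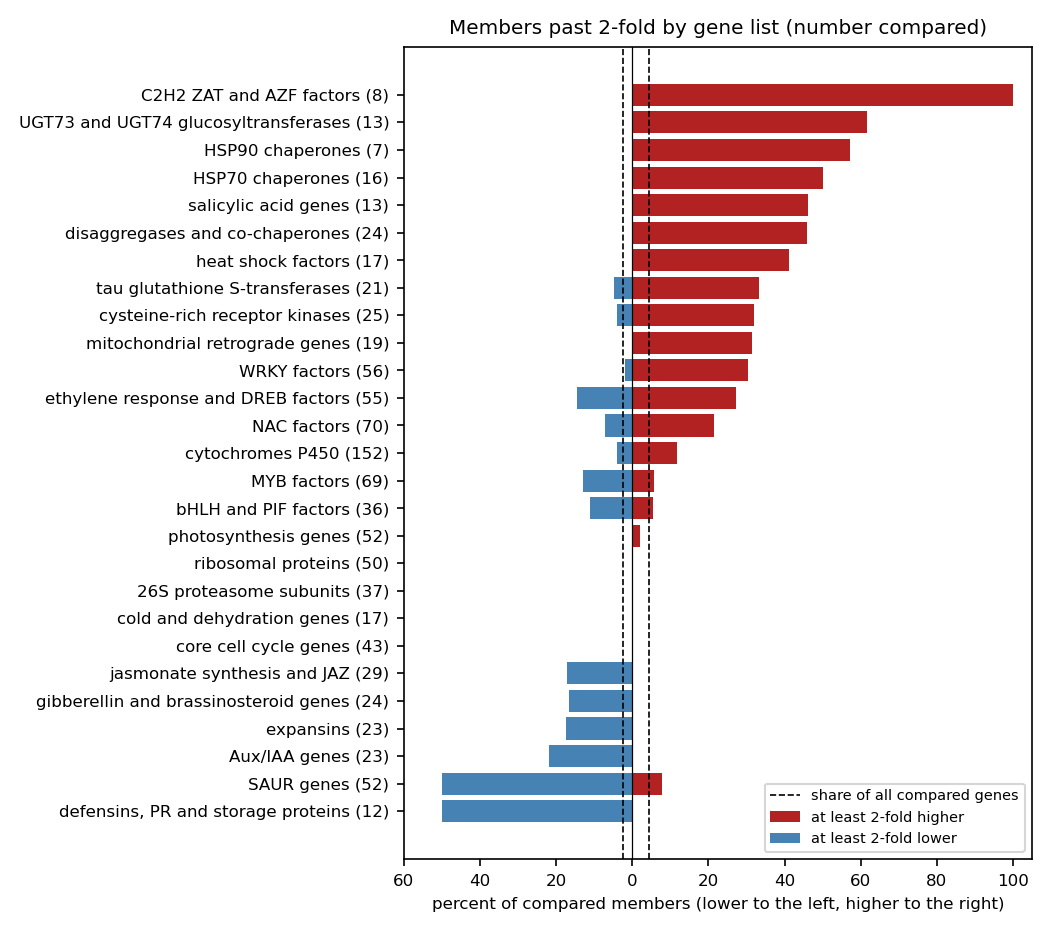
Percent of the compared members of 27 gene lists that were at least 2-fold higher (red, to the right) or lower (blue, to the left) after (E)-2-pentenal, with the number compared in brackets. Dashed lines mark the shares over all compared genes, 4.43% higher and 2.32% lower. Zinc finger factors, glucosyltransferases and chaperones reach farthest to the right, SAUR genes and defensins farthest to the left, and several housekeeping lists have no bar.

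Among early signalling genes, calcium sensors and cysteine-rich receptor kinases were higher more often than the 4.43% of all genes, and the calcium kinase and MAP kinase lists lay near that share. Of 21 calmodulin-like calcium sensors 4 (19.05%) were higher and 1 lower, with CML37 at 1072 and 27241 (25.4-fold) and CML38 at 6903 and 27288 (3.95-fold). Of 91 calcium-dependent kinases, calcium pumps and channels 3 (3.3%) were higher and 3 (3.3%) lower, beside 2.32% of all genes for the latter. The higher count lay between 1 and 6 over the settings, and CNGC14 (1.04), CNGC8 (1.04) and the lower CIPK9 (-1.01) were just past 2-fold on the log2 scale. DND1, the calcium channel known as CNGC2, was at 9368 and 2527 (3.71-fold lower), and CPK32 2.35-fold higher. In the MAP kinase cascades 3 of 48 genes (6.25%) were higher and 1 (2.08%) lower. The lower one, MAPKKK19, has 2 probes of opposite sign, -1.62 and 1.65, and is not lower as their mean. MKK9 was at 4434 and 16521 (3.73-fold), MPK3, a kinase of stress and immune signalling, at 4073 and 14472 (3.55-fold), and MPK11 at 3.38-fold. Of 25 cysteine-rich receptor kinases 8 (32%) were higher, 4 to 9 over the settings, and 1 lower (median 0.63), with CRK3 at 889 and 4320 (4.86-fold) and CRK14 at 3.04-fold.

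Several regulators of salicylic acid responses were higher. Of 13 compared genes 6 (46.15%) were higher and none lower (median 0.87). SARD1 and CBP60G, the factors that switch on salicylic acid synthesis, were at 641 and 5164 (8.05-fold) and at 573 and 3352 (5.85-fold). NIMIN1, which binds the receptor NPR1, was at 379 and 2534 (6.68-fold), and the receptors NPR3 and NPR4 were 3.38-fold and 4.38-fold higher. PAD4, an activator of defence, was 2.96-fold higher. EDS16, the enzyme isochorismate synthase, was at 0.64 and EDS5, the transporter of its product, at -0.06 on the log2 scale. PR1, the classical marker of salicylic acid action, was at background in the control, 7.25, and at 18.6 after (E)-2-pentenal, at least 1.96-fold higher.

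Abscisic acid genes were mixed and the cold and dehydration genes were level. Among 25 genes for abscisic acid turnover and perception 4 (16%) were higher and 3 (12%) lower (median -0.21, or -0.09 with bounds). CYP707A3, which breaks the hormone down, was at 1778 and 8705 (4.9-fold), and the phosphatases ABI1 and ABI2, brakes on its signal, were 2.36-fold and 3.48-fold higher. The receptors PYL4, PYL5 and PYL6 were lower, by 2.38-fold, 2.98-fold and 3.72-fold. The related phosphatases HAB1 and HAB2 were at -0.22 and 0.09. None of 17 cold and dehydration genes passed 2-fold, with a range of -0.51 for ERD10 to 0.43 for COR15A and a median of 0.02. The cold response factors themselves were higher, DREB1A at 120.3 and 518 (4.31-fold), CBF1 3.58-fold and CBF2 2.22-fold, the last at 0.98 on the log2 scale after normexp correction. Of the sugar protectant genes GolS2 was 2.02-fold higher and GolS4 4.57-fold lower, but neither passed 2-fold in every setting.

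The list with the most lower genes was the SAUR family, small auxin-induced genes whose products promote cell expansion. Of 52 compared members 26 were lower and 4 higher, beside 2.32% and 4.43% of all genes, with a median log2 difference of -0.95, or -1.03 with bounds. A further 6 were above background on the control array alone, with bounds of at least 2-fold lower. SAUR63 was at 2933 in the control and 221 after (E)-2-pentenal (13.2-fold lower), SAUR20 at 1260 and 101 (12.5-fold), and SAUR75 at 154 and 11.6 (13.3-fold). The (E)-2-pentenal signal of SAUR75 was close to background, so the size of its difference is uncertain. SAUR19, SAUR22 and SAUR23, whose products activate the proton pump of the plasma membrane by blocking its phosphatases, were 7.5-fold, 5.19-fold and 8.28-fold lower. AT2G37030, known as SAUR46, was at 163 in the control and not above background after (E)-2-pentenal, at 1.98, at least 19.7-fold lower. AT1G72430 was just past the limit, being at 25124 and 12281 (2.05-fold lower). The 4 higher members were AT3G09870, known as SAUR48, at 561 and 4725 (8.42-fold), AT3G60690, AT3G12830 and AT4G22620. SAUR genes of 1 cluster are near-copies, so their probes may share transcripts and their values are uncertain as separate measurements.

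**Figure D4:**
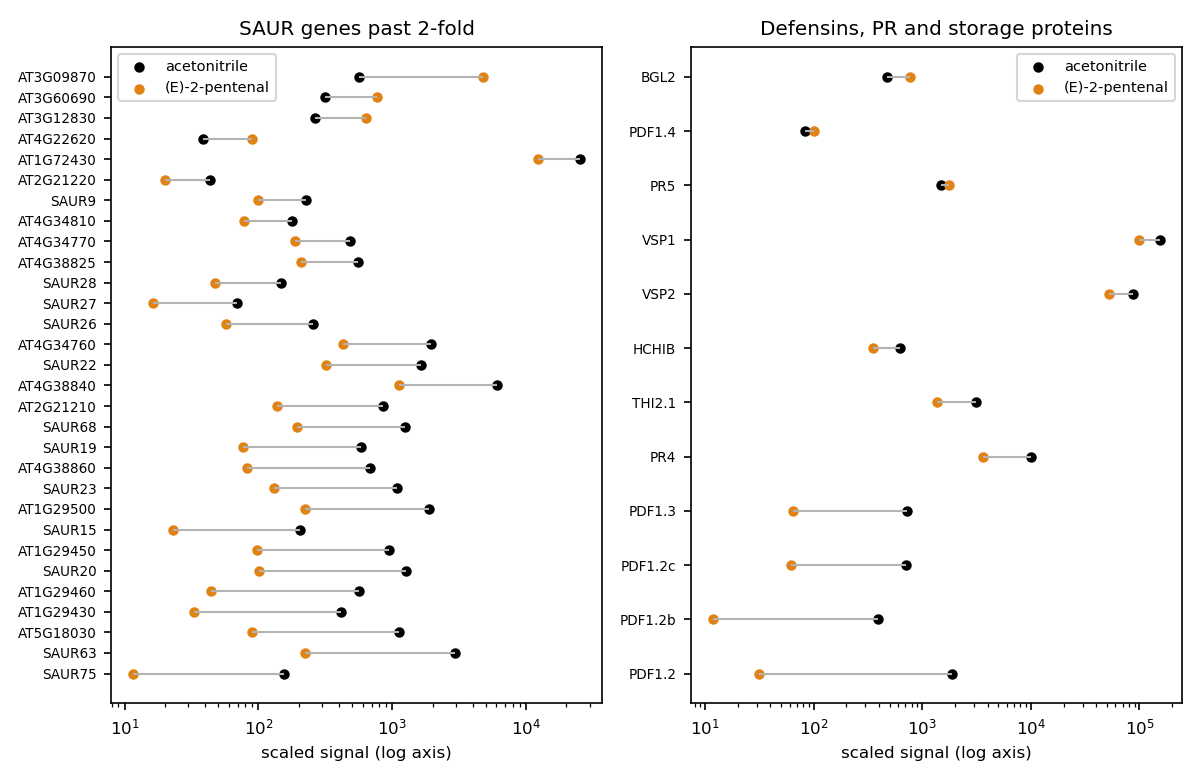
Scaled signal on the acetonitrile array (black) and the (E)-2-pentenal array (orange), on log axes, for the 26 lower and 4 higher SAUR genes (left) and the 12 compared defensin, PR and storage protein genes (right). Most SAUR genes lie well to the left after (E)-2-pentenal, and the 4 PDF1.2 and PDF1.3 defensins show the widest gaps on the right.

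Other auxin genes differed less. Of 23 Aux/IAA repressors 5 (21.7%), or 3 to 6 over the settings, were lower and none higher (median -0.27), beside 2.32% of all genes for lower ones, with IAA2 at 14504 and 5420 (2.68-fold), IAA6 at 1730 and 568 (3.04-fold) and SHY2, known as IAA3, at 2928 and 989.8 (2.96-fold). Of 24 GH3 and auxin transport genes 1 was higher and 1 lower, or up to 2 and 3 over the settings. DFL2, a GH3 gene, was at 8877 and 1586 (5.6-fold lower). BRU6, the amino acid conjugating enzyme known as GH3.2, was the other way, at 20.7 and 255 (12.3-fold higher). AT5G57760, the lowest of the genes with a processed signal of at least 50 on both arrays, was at 3843 and 95.7 (40.1-fold lower).

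Further growth-related lists held a few lower genes each, to be read beside 2.32% of all genes. Of 24 gibberellin and brassinosteroid genes 4 were lower (median -0.32), among them the growth repressors GAI at 1413 and 483 (2.92-fold), RGL1 at 2.3-fold and RGL3 at 3.23-fold. Of 18 cytokinin genes 2 (11.1%), or 1 to 4 over the settings, were lower (median -0.46), with ARR6 at 404 and 174 (2.33-fold). Of 23 expansins, which loosen cell walls, 4 were lower (median -0.24), with EXLA1 at 39836 and 18054 (2.21-fold). Of 28 XTH genes, which cut and rejoin xyloglucan, 4 (14.3%) were higher and 1 lower, which was XTH33 at -1.03 on the log2 scale and inside 2-fold in 4 of the settings, with XTR6, known as XTH23, at 3189 and 9145 (2.87-fold) and XTH18 at 10419 and 29433 (2.83-fold). Of 19 ethylene genes ACS6, a synthesis enzyme, was higher at 1460 and 5904 (4.04-fold), and the receptor ETR2 and the F-box protein EBF2 were 3.27-fold and 2.87-fold lower.

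Some jasmonate genes and several defensins that jasmonate and ethylene induce were lower. Of 29 jasmonate synthesis and JAZ genes 5 (17.2%) were lower and none higher, with a median of -0.31. JAZ6, a repressor of jasmonate responses, was at 21229 and 8752 (2.43-fold), CYP94C1, given above, was the lowest, and AT5G05600 was 2.39-fold lower. The synthesis enzymes AOS and LOX2 were at -0.48 and -0.50 on the log2 scale, and LOX4 was the highest of the list at 0.81. Of 12 compared defensins, PR and storage proteins 6 were lower and none higher (median -1.01, or -0.79 with PR1 and BG1 at their bounds). PDF1.2, the standard reporter of jasmonate and ethylene defence, was at 1868 and 31.4 (59.6-fold lower). PDF1.2b was at 395 and 11.9 (33.2-fold), PDF1.2c at 702 and 61.3 (11.5-fold), and PDF1.3 at 722 and 64.9 (11.1-fold). The (E)-2-pentenal signal of PDF1.2b was close to background, so the size of its difference is uncertain. These 4 genes are near-copies whose probes may share transcripts. PR4 was 2.78-fold lower and the thionin THI2.1 2.27-fold, while the storage proteins VSP1 and VSP2, also induced by jasmonate, were at -0.64 and -0.74.

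Some lower genes are known to belong with PYK10, and they were gathered after their values were seen, with no count of such genes taken. The jacalin-related lectins JAL33 and JAL34 and the lipase-like GLL22 and AT1G54010, known as GLL23, are partners of PYK10 in a protein complex, and they were 2.42-fold, 2.25-fold, 2.93-fold and 3.26-fold lower, beside 2.12-fold for PYK10. The myrosinase-binding proteins MBP1 and MBP2 were 2.27-fold and 2.08-fold lower, and the indole glucosinolate enzyme CYP81F4 2.14-fold. PYK10 served as a root marker here, while the other root markers well above background lay between -0.70 for SHV2 and 0.19 for CASP1. The part of root content in these differences was not tested. Of 25 camalexin and glucosinolate genes 2 (8%) were higher and 1 (4%) lower, beside 4.43% and 2.32% of all genes, and each count was 1 or 2 over the settings.

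The abundant transcripts of cell maintenance differed little. Of 52 photosynthesis genes 1 was higher and none lower (median -0.13). That gene was ELIP1, an early light-induced protein that protects chloroplasts, at 224 and 1220 (5.45-fold). None of 50 ribosomal protein genes, 43 core cell cycle genes, 21 histones, 15 reference genes and 21 phenylpropanoid genes compared passed 2-fold, with medians of 0.00, -0.17, -0.03, -0.03 and -0.01. HTA4, a further histone, was at 29.5 in the control and not well above background after (E)-2-pentenal, at 1.69, at least 3.56-fold lower, and 1 phenylpropanoid gene was higher with median scaling and cyclic loess. The reference genes UBQ10 and TUA3 marked the ends of that list, at 0.63 and -0.51, and ACT7 was at 0.00. Of 26 clock genes none was higher and 2 (7.69%) were lower, PRR9 (2.47-fold, at -0.57 on the log2 scale after normexp correction) and AT5G06980, known as LNK4 (2.19-fold), the count being 1 to 4 over the settings. The dawn genes LHY and CCA1 were at -0.40 and -0.44, and TOC1 of the evening at 0.17. Of 15 iron deficiency and ferritin genes 2 were higher and none lower, and neither of the 2 passed with spike-in scaling.

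Among the 967 genes in the top 5% by mean level over both arrays, 58 were higher and 13 lower, to be read beside 4.43% and 2.32% of all genes. That level includes the (E)-2-pentenal array, so a higher signal there itself helps a gene into this set. The greatest differences there after MBF1C and RHL41 were those of AT1G66090, at 4314 and 54725 (12.7-fold), and AT3G44190, at 5651 and 63634 (11.3-fold). AT4G24160 was 9.19-fold higher and AT1G76600 8.83-fold. The lowest was AT2G47440, at 22592 and 6600 (3.42-fold), followed by EBP. Of all genes past 2-fold, 705 of 1305 had no symbol in the RefSeq table. Among the highest were AT5G54165, at 61.4 and 9633 (157-fold), and AT4G08555, at 60 and 5384 (89.7-fold), which are named by locus alone. AT1G71000 had the greatest fold of all compared genes, 15.6 in the control and 7032 after (E)-2-pentenal (452-fold), from a control signal close to background. It was at 659.6 after 3-hepten-2-one and 19522 after crotonaldehyde, and was named after its values were seen. Among the lowest were AACT1, an acyltransferase, at 781 and 46.7 (16.7-fold), AT4G16260 at 588 and 40.6 (14.5-fold), and OFP16, an ovate family protein, at 1920 and 180.0 (10.7-fold).

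In some places genes next to each other on a chromosome were past 2-fold together. There were 13 runs of at least 3 neighbouring compared genes that were all higher, with 43 genes, and 8 that were all lower, with 25 genes. The longest run, of 6 genes on chromosome 5, ended with WRKY38 (3.5-fold) and held AT5G22520, AT5G22530, AT5G22540, AT5G22545 and AT5G22550. On chromosome 4 the adjacent UGT73B1, UGT73B2 and UGT73B3 were all higher, and on chromosome 2 a run of 4 held DOGT1, UGT73C6, AT2G36770 and AT2G36780. AT2G36780 was at 350.2 and 6787 (19.4-fold). The cold factor trio CBF1, CBF2 and DREB1A formed another run. On chromosome 5 the lipid transfer protein genes LTP3 and LTP4 and their neighbour AT5G59330 were higher, LTP3 at 404 and 6480 (16-fold), LTP4 at 25.6 and 636 (24.9-fold) and AT5G59330 7.99-fold. On chromosome 2 the run with HSP70T-2 held 2 further genes with smaller differences, AT2G32130 (2.71-fold) and AT2G32140 (2.31-fold). Lower runs held SAUR genes on chromosomes 1, 3, 4 and 5, myrosinase-binding proteins and the GLL22 group on chromosome 1, jacalin lectins on chromosome 3, and AT4G22505, AT4G22513 and AT4G22517 on chromosome 4. Neighbours in such families can be alike in sequence, and the part of cross-hybridisation in their values was not tested.

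The 8 greatest bounds upward belonged to small heat shock proteins in 7 cases. The eighth was AT1G72660, at 6.96 and 691, at least 72.8-fold higher. In the other direction the bounds were smaller. After AT2G37030 came AT1G29080, at 152 and 2.18, at least 18.4-fold lower, and AT2G41930, at least 17.1-fold. PCR11, named for cadmium resistance, and cPT5, a prenyltransferase, were at least 15.4-fold and 14-fold lower.

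The levels under the other volatiles, at the same nominal dose and time, were set beside those of (E)-2-pentenal. The 3 volatile arrays share the control, and each is 1 array, so the sizes below carry no test. 3-hepten-2-one is an unsaturated ketone and crotonaldehyde an unsaturated aldehyde with a shorter chain than (E)-2-pentenal. The crotonaldehyde array lay on another slide, scanned separately, and stood apart in its markers. The epidermal marker PDF1 was at 20.3 there and at 12132, 10295 and 11968 for acetonitrile, (E)-2-pentenal and 3-hepten-2-one. The clock gene LHY was at 41.9 there, against 2446, 1853 and 3248, and PYK10 at 56.4, against 17818, 8423 and 31450. Treatment, slide and these differences cannot be told apart on that array. The 3-hepten-2-one array stood apart in other clock genes. GRP7 was at 7580 there, against 279339, 284450 and 394906 for acetonitrile, (E)-2-pentenal and crotonaldehyde. ELF4 was at 48.3 there, against 3526, 4555 and 11965 in the same order. Treatment and these differences cannot be told apart on the 3-hepten-2-one array either.

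Leading heat shock genes were high on all 3 volatile arrays. AT1G07400 was at 82001 after (E)-2-pentenal, 74826 after 3-hepten-2-one and 116964 after crotonaldehyde. HSFA2 was at 40265, 37732 and 48559 in the same order, and HSP101 at 31074, 28576 and 65756. The crotonaldehyde value was the highest in each case, and those of the other two lay close together. Hsp70b was spread more widely, at 3274, 1451 and 11492. The PDF1.2 defensin was at 31.4 after (E)-2-pentenal, 1815 after 3-hepten-2-one and 57.3 after crotonaldehyde, with the control at 1868. It was thus low on both aldehyde arrays and close to the control on the ketone array. PDF1.2b, PDF1.2c and PDF1.3 lay the same way, but the other lower genes of that list, PR4 and THI2.1, were low on all 3. PR4 was at 3600, 3267 and 1251 in the same order, with the control at 10000. THI2.1 was at 1370, 904 and 37.9, with the control at 3112. SAUR63 was at 221, 383 and 23.4, with the control at 2933.

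All 4 arrays measured 18407 genes above background, and of these 60 were at least 2-fold higher on the (E)-2-pentenal array than on each of the others, and 36 at least 2-fold lower. BRU6 was at 255 after (E)-2-pentenal, against 20.7 for acetonitrile, 23.8 for 3-hepten-2-one and 15.7 for crotonaldehyde. SARD1 was at 5164, against 641, 220.3 and 1146 in the same order, and NIMIN1 at 2534, against 379, 122 and 311. Both are regulators of salicylic acid responses. The other higher genes of the salicylic acid list, CBP60G, NPR3, NPR4 and PAD4, were not 2-fold above every other array. CBP60G was at 3352, against 573, 1929 and 1628, and NPR3 at 5503, against 1626, 3462 and 5144. NAC004 was at 1408, against 29, 182 and 40, and the glutaredoxin GRXS13 at 2468, against 194, 619.5 and 522. LTP3 was at 6480, against 404, 1198 and 621. In the lowest group NAC019 was at 184, against 615, 727 and 1688, and RAP2.6 at 46.2, against 273, 594 and 201. MYB47 was at 306, against 994, 1221 and 2201, and OCT6, a carnitine transporter, at 524, against 1705, 2388 and 3054. MAPKKK19 also met the rule, but its 2 probes gave opposite signs, -1.62 and 1.65. With 1 array a group, the spread between plants under 1 treatment is unknown, and these genes were picked for their pattern on these arrays.

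**Figure D5:**
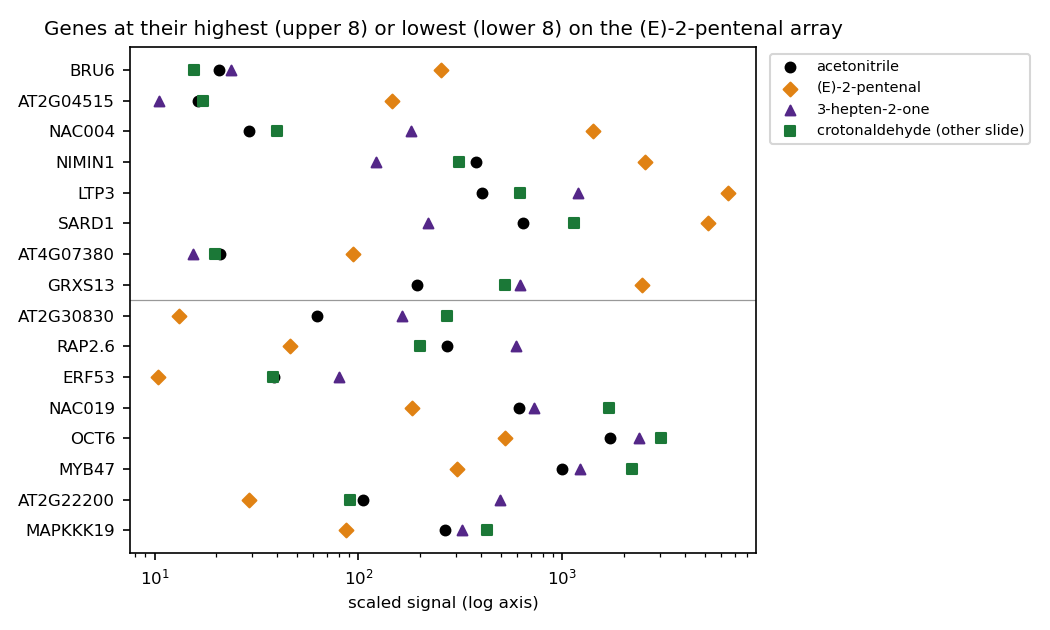
Scaled signal on each of the 4 arrays (log axis, 75th percentile of each array at 1000) of the 8 genes with the greatest smallest excess on the (E)-2-pentenal array over the other arrays (above the line) and the 8 with the greatest smallest deficit (below it). The orange diamonds of (E)-2-pentenal stand to the right of all other marks above the line and to the left of them below it, which is how the genes were chosen.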

How the data were processed

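Wild-type seedlings were measured on 4 one-colour Agilent arrays with Cy3, 1 array a group. The deposited intensity values are spot brightness, background-subtracted within each array with Agilent Feature Extraction 10.10.1.1, per the file headers (the submitters' processing notes name 9.1), with no scaling between arrays. The authors' value table holds the same intensity values times 1 constant per array, and how that constant was set is not stated in the labels or headers.

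Spots were matched to TAIR loci through the transcript accession in the file and the RefSeq table of TAIR10.1. A locus name in the file was not used for matching. In this way 34458 spots matched 1 locus, giving 25413 genes, and 9345 did not. Control spots were left out. For each gene the probe with the brightest mean over the 4 arrays was used, log2 of the processed signal was taken minus the 75th percentile of the array, and the control was subtracted. Genes well above background, by the deposited flag, on both arrays were compared, and a size of 2-fold was the limit. With n = 1 per group no test was possible. The spread between plants is unknown, and the number of arrays limits the precision.

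Genes named are the 12 highest and 12 lowest with a signal of at least 50 on both arrays, the 8 greatest bounds each way, up to 6 members past 2-fold each way of each list, the 8 highest and lowest of the top 5% by level, the members of runs, and the 8 with the most distinct level on the (E)-2-pentenal array each way. Further members, those under 2-fold included, were chosen after their values were seen. The comparison and the gene lists were chosen with earlier results of these data known. Some loci without a symbol, such as the small heat shock proteins named by locus, were placed in lists from general knowledge of the families. Calculations used Python 3.11.15 with pandas 2.3.3, and R 4.3.3 with limma 3.58.1 for normexp, quantile and loess alternatives, and were tested on simulated data. Promoter sequences and motifs were not analysed here.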

Additional observations from a re-analysis of the deposited data

Results flagged for a closer look

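Of 4330 probes well above background on both arrays but matched to no locus, 161 (3.72%) gave a signal higher by 2-fold or more after (E)-2-pentenal than in the control, and 107 (2.47%) gave one lower by as much. They were singled out because no comparison of genes used their signal. The shares over matched genes were 4.43% and 2.32%. These probes have no name here, and what they measure was not tested.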

How the results depend on the processing

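No paired analysis was possible because each group has 1 array, and for the same reason no replicate could be left out. The 856 higher genes became 459 and the 449 lower genes 138 among the genes above the median of the mean level, which includes the (E)-2-pentenal array. They became 1244 higher and 928 lower with no filter on dim probes, and 694 and 252 after normexp correction. A 1.5-fold limit gave 1502 higher and 1376 lower, and a 4-fold limit 314 and 58. Scaling to the spike-ins, an alternative chosen after seeing the data, gave 753 and 612, cyclic loess 941 and 361, median scaling 920 and 396, and the authors' scaled values 798 and 520. The share of higher genes among those past 2-fold lay between 55.2% and 76.9% over the alternatives that keep that limit. Among genes past 1.5-fold it was 52.2%, and among those past 4-fold 84.4%. MAPKKK19 was at 0.014 on the log2 scale as the mean of its 2 probes, against -1.62 for the brighter probe. Of 315 named genes past 2-fold, 259 were past it in each of the 7 settings that give the same compared genes other values, and of the 56 others 44 were inside 2-fold after normexp correction. They include UGT73C6 (0.84 on the log2 scale), AT5G22550 (0.66) and AT4G22620 (0.68). Of 8 lists with a median past 2-fold, 7 kept it past 2-fold in those 7 settings, and the exception was the defensin list (-0.95 with cyclic loess, -0.96 with median scaling and -0.97 after normexp correction). Alternatives for promoter motifs were not run, since no promoter sequence was used here. Signal near background limits the values of dim genes, some of which have only a bound.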
